A study of Caenorhabditis elegans with 2 samples.

Results

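The regions described here are strong intergenic ChIP-seq regions of the tagged nuclear hormone receptor NHR-28 that lie away from annotated promoters. They numbered 1613 of the 29976 nuclear regions (5.38%) that the authors called on both replicates together. A region was taken when 3 conditions held. Its pooled signal value was 20 or more. Its summit, the position of highest signal, lay more than 1000 bp from any 5' end of protein-coding transcripts in the annotation, and outside all genes except piRNA genes. No tRNA or snoRNA gene lay within 500 bp. Since the signal value chose these regions, their strength and their presence in the lists made from the same reads are given as a description and were not tested.

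The data are ChIP-seq of Caenorhabditis elegans strain OP317, which carries unc-119(ed3) III and the integrated transgene wgIs317, an insertion that tags nhr-28 with eGFP. Both libraries came from whole organisms at mixed embryonic stages, males and females pooled, and are labelled biological replicates 1 and 2 of 1 group. Every library therefore carries the transgene, and an untagged, untreated or other-stage group was not analysed here, so the comparisons set regions of 1 list against each other and not conditions. The tagged protein is expressed from a transgene, and whole embryos mix all cell types, so a region cannot be assigned to a tissue. The authors' region lists hold a signal value, their measure of strength against a control, whose scale differs between lists. Neither library's read total is given in the sources used here, so depth is unknown.

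Nuclear hormone receptors are transcription factors with a zinc-finger DNA-binding domain and, in most members, a ligand-binding domain. Many of them bind DNA at copies of the half-site AGGTCA. C. elegans has a much enlarged receptor family, most of which is related to vertebrate HNF4. Intergenic DNA away from promoters can hold enhancers, insulators and repeats. On the X chromosome it also holds sites that recruit the dosage compensation complex, which lowers transcription from both X chromosomes of hermaphrodites. The recruitment sites of that complex are known for a motif whose core reads CGCGCAGGG.

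The 6 strongest of these regions on X carried short words that recurred among them, and the plus strand of ce11 around each summit is shown for that reason, 100 bp to either side. Capitals mark CGCGCAGGG, CCCTTCGC, GTGGATA, GAGACGCAG and GAGAGA on either strand, so that CGCGCAGGG on the minus strand reads CCCTGCGCG, CCCTTCGC reads GCGAAGGG and GTGGATA reads TATCCAC. In the window around 9465843 the capitals of CCCTTCGC on the minus strand and of GAGAGA share 1 base. The sequences come from the RefSeq assembly WBcel235, which is the same build.
chrX:13700783-13700983: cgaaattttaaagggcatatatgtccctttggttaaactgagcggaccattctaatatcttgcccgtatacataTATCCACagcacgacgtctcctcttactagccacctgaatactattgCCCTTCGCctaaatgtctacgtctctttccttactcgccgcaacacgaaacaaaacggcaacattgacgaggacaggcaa
chrX:16682024-16682224: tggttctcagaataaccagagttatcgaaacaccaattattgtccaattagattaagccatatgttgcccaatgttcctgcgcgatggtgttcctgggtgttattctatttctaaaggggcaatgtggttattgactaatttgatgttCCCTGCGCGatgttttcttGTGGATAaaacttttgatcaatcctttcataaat
chrX:11094124-11094324: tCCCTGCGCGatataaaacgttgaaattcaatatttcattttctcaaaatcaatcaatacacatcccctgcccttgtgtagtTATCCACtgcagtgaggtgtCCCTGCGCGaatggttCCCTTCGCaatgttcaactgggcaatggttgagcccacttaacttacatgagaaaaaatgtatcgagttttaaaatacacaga
chrX:9465743-9465943: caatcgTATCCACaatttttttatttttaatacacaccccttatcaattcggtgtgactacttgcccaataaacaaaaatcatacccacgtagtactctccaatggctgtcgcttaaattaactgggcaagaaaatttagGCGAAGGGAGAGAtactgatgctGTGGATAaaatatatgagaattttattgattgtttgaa
chrX:4209181-4209381: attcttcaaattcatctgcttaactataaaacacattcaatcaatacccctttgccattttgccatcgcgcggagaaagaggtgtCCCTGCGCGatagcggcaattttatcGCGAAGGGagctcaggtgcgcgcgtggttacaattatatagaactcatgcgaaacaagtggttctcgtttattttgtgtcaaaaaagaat
chrX:806574-806774: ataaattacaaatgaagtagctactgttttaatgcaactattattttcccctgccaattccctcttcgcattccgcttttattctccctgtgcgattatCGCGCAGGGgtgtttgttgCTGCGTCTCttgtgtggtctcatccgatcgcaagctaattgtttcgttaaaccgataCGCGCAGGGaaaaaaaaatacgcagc

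The first 3 of the 4 autosomal windows below show strong regions with GAGAGA or its complement TCTCTC. Their matches run from 1 in the first to 14 overlapping ones in the second. The fourth is the 1 region, among the 19 of this set in the authors' final list, that held the receptor half-site. The first 3 have GAGAGA in capitals, and the fourth has TGACCTTT, the half-site AGGTCA on the minus strand with 2 further bases.
chrIII:4237868-4238068: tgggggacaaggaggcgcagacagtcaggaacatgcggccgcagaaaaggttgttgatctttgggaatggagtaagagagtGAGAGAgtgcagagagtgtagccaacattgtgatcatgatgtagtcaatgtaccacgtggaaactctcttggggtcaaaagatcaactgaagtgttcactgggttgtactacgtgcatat
chrII:11635827-11636027: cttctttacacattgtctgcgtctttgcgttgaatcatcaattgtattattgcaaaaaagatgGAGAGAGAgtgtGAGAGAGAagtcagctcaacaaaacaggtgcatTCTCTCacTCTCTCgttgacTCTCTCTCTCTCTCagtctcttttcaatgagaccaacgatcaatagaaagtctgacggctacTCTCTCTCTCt
chrIII:3801436-3801636: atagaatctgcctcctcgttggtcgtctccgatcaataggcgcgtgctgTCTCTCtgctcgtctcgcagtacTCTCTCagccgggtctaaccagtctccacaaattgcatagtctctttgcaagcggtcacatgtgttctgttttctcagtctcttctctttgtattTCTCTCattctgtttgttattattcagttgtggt
chrII:5543627-5543827: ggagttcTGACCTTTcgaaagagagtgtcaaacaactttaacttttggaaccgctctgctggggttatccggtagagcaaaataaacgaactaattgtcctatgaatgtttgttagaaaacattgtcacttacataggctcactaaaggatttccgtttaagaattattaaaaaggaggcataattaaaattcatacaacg

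The signal of the 1613 regions was concentrated near the threshold. Their pooled signal value had a median of 23.2, with quartiles of 21.4 and 26.5, and reached 185. A signal of 20 to 25 was given to 1068 regions, 25 to 30 to 337, 30 to 40 to 153, 40 to 50 to 32, and 50 or more to 23. Just inside the threshold lay the regions at IV 10796011, X 7077620 and IV 4535386, with 20.0012, 20.0062 and 20.0064. Just outside, by the same position rule, lay those at X 3467912, I 2743932 and V 6457359, with 19.9982, 19.9913 and 19.9859. The region with 20.0062 had 289 near copies elsewhere in the genome, and the other 2 just inside had 0. Near copies were found for 8.80% of the regions of 20 to 25, 8.01% at 25 to 30 and 7.84% at 30 to 40. Repeated sequence was thus present at the edge of the set but not confined to it. All but 1 of the regions had the fixed width of 324 bp, and the exception, 106 bp, was the strongest.

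The authors' final list, made by the irreproducible discovery rate (IDR) method, contained 19 of the 1613 (1.18%, Wilson 95% interval 0.755 to 1.83). Of all nuclear pooled regions the IDR list held 0.721%, and of those with a signal of 20 or more 2.71%. The summit fell inside a region of both replicate lists for 206 (12.8%, 11.2 to 14.5), beside 4.70% of all nuclear pooled regions and 17.2% of those with a signal of 20 or more. The rule used the pooled signal, which is made from the same reads, so nothing is read from these shares. All intervals cover counting error only, and neighbouring regions are not independent.

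Presence in the replicate lists followed the signal value. Of the 1613, 795 had their summit in a replicate 1 region alone, 283 in a replicate 2 region alone and 329 (20.4%) in neither. The replicate 1 list is longer, with 14719 nuclear regions against 4532. Both lists held 1.78% of the regions with a signal of 20 to 25, 17.2% of those of 25 to 30, 53.6% of those of 30 to 40, 75% of those of 40 to 50 and all 23 of those of 50 or more. Strong regions elsewhere, at promoters, in genes or near tRNA and snoRNA genes, gave 2.68%, 18.5%, 55.1%, 89.6% and 98.02% in the same steps. In the 3 lower steps these shares lay within the Wilson intervals of the intergenic ones, and in the step of 40 to 50 the share lay above the interval of 57.9 to 86.7%. With the deposited q-value of the replicate regions held to 0.05 or less, 13 of the 1613 were in both lists and 48 in at least 1. Regions of the same position rule with a signal under 20 numbered 4828, and 1 of them was in both lists.

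**Figure D1:**
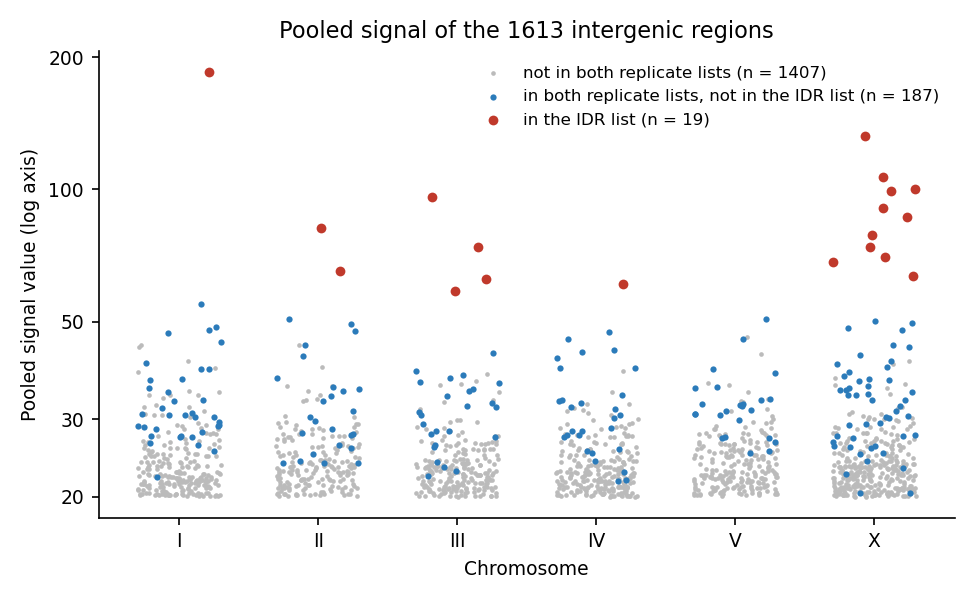
Pooled signal value (vertical axis, log scale) of each of the 1613 intergenic regions, by chromosome; red points are the 19 regions in the IDR list, blue points the 187 others in both replicate lists and grey points the remaining 1407, spread sideways only to separate them. The red points lie above 58, and 11 of the 19 are on X.

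The strongest region lay on chromosome I, with its summit at 13475711 between Y48G10A.3 and Y48G10A.2, and had a pooled signal of 185, a replicate 1 signal of 104 and a replicate 2 signal of 84.7. It stood at place 4 of the 29976 nuclear pooled regions by signal. X 13700883 followed with 132 in the pooled list, 86.02 in replicate 1 and 46.7 in replicate 2. It lay 5082 bp past adm-2, which encodes an ADAM-family membrane protein, and 6024 bp before K02D3.1. Both regions were far above the pooled median of 16.7.

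The next 4 X regions of this strength were at 16682124, 11094224, 9465843 and 4209281. The first had a pooled signal of 107 (replicates 52.6 and 51.4) between the converging genes F22H10.2 and F22H10.11. The second had 100.2 (51.1 and 53.7) between W04G3.11 and W02H3.3, also converging. The third had 99.2 (49.7 and 47.8), 6627 bp before gap-2, which encodes a Ras GTPase-activating protein. The fourth had 90.5 (46.0 and 45.9), 1290 bp past the 3' end of hpk-1, the homeodomain-interacting protein kinase gene. X 13700883 exceeded these 4 in replicate 1, and in replicate 2 it lay within their range of 45.9 to 53.7.

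Of the other X regions in the IDR list, X 806674 had a pooled signal of 86.5 (50.6 and 41.8) between gtr-1 and F25E2.2. X 11937576 had 78.6 (40.6 and 38.6) between F55G7.5 and dot-1.4, a relative of the histone H3 lysine methyltransferase DOT1. X 16929689 had 73.8 (41.9 and 32.8) between C30E1.4 and F52G3.8. X 10766458, upstream of sma-9, a zinc-finger gene of the body-size TGF-beta pathway, had 70.2 (36.8 and 29.8). X 12670605 had 68.3, with 47.1 in replicate 1 and 17.0 in replicate 2, and lay 2751 bp upstream of the nuclear receptor gene nhr-17 with adt-1 on its other side. The last, X 12363236, had 63.7 (39.2 and 27.1) in a gap of 555 bp between the 3' ends of F19H6.6 and F19H6.5.

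On the autosomes, III 4237968 had a pooled signal of 95.9 (57.1 and 42.2) and lay 4749 bp upstream of the receptor gene nhr-20. II 11635927 had 81.6 (54.2 and 26.1), 2318 bp upstream of din-1, which encodes a corepressor partner of the nuclear receptor DAF-12. III 3801536 had 73.9 (42.2 and 28.2) between the myotubularin gene mtm-3 and xbx-5. II 5543727 had 65.0 (37.8 and 36.0), 785 bp past the 3' end of the insulin-like peptide gene ins-13. III 5202862 had 62.7 (33.7 and 26.3), upstream of emb-8, the cytochrome P450 reductase gene, and near morc-1. IV 1454406 had 61.1 (39.1 and 22.4) between the calpain gene clp-7 and the NAD kinase gene nadk-1. III 1681185 had 58.7 (29.5 and 29.9) between Y22D7AR.6 and Y22D7AR.7. The twentieth, I 9837266, 2332 bp upstream of the receptor gene nhr-62, had 54.8 (18.5 and 39.9) and was the only one of the 20 not in the IDR list.

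Over the 206 regions in both replicate lists, the 2 signals had a Pearson correlation of 0.788 and a Spearman correlation of 0.415. These are correlations across regions, which share the 2 libraries and were selected by the sum of the same reads. Outside the IDR list they were 0.211 and 0.243 over 187 regions, so the upper end carried most of the linear relation. On X they were 0.841 and 0.587 over 60 regions, and on the autosomes 0.738 and 0.335 over 146. The replicate 2 value was the higher of the pair in 138 of the 206, on scales that differ between the lists.

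**Figure D2:**
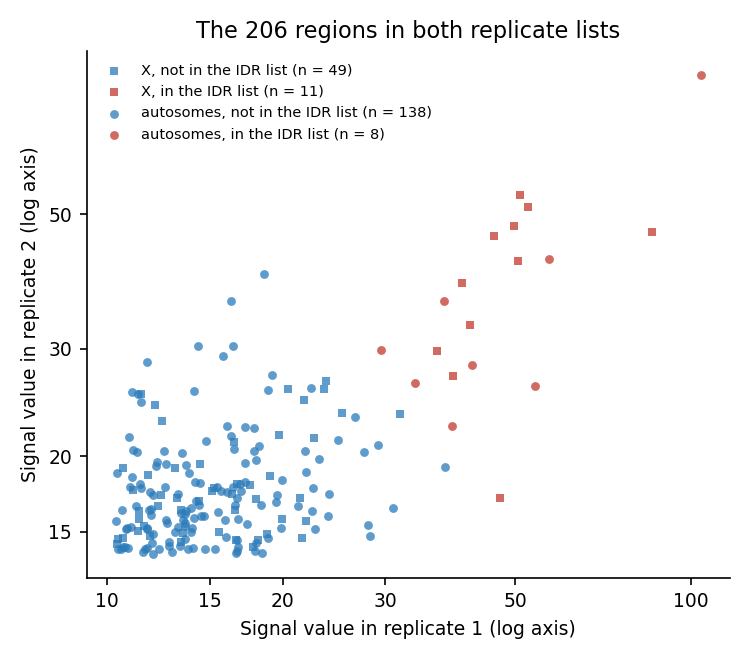
Signal value in replicate 1 (horizontal) against replicate 2 (vertical), both on log axes, for the 206 regions in both replicate lists; squares are on X, circles on autosomes, and red marks the 19 regions in the IDR list. The red points extend up and to the right of a cloud of 187 points within which the relation is weak (Spearman 0.243).

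Regions in no replicate list reached a pooled signal of 33.2. That region, III 8356550, lay 1376 bp from the kinesin heavy chain gene unc-116. II 9258521 had 30.4, near the neuropeptide gene nlp-82 and the aquaporin gene aqp-2. III 5182707 had 28.5 between cid-1 and pup-2, X 10082878 had 27.9 near the collagen gene col-176, and V 6777771 had 27.5 near the chemoreceptor gene srh-28. The median of the 329 was 21.5, against 32.1 for the 206 in both lists.

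X held about the share of these regions that its open sequence gives, and a larger share of the strongest ones. The genome length where the position rule can be met came to 20.9 Mb, 20.9% of the nuclear genome, and held 77.0 of the regions per Mb. X held 372 regions (23.1%, 21.1 to 25.2), beside 23.8% of that length and 22.8% of the weaker regions of the same position rule. Per Mb of it, chromosome I held 110 regions, III 101.05, X 74.7, II 72.5, V 63.6 and IV 62.7. Among the 23 regions with a signal of 50 or more, 52.2% were on X, against 23.0% of those of 20 to 25. Other strong regions of the nuclear genome also had a higher X share at 50 or more (21.3%) than at 20 to 25 (15.3%). Of the 54 X regions in the IDR list 11 (20.4%) were of this intergenic set, and of the 162 autosomal ones 8 (4.94%). For comparison, the strong regions on X, with a signal of 20 or more, were 372 of the set and 1016 others. On the autosomes they were 1241 of the set and 5332 others. The shares above are of a list that the signal chose, and no test was made of them.

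**Figure D3:**
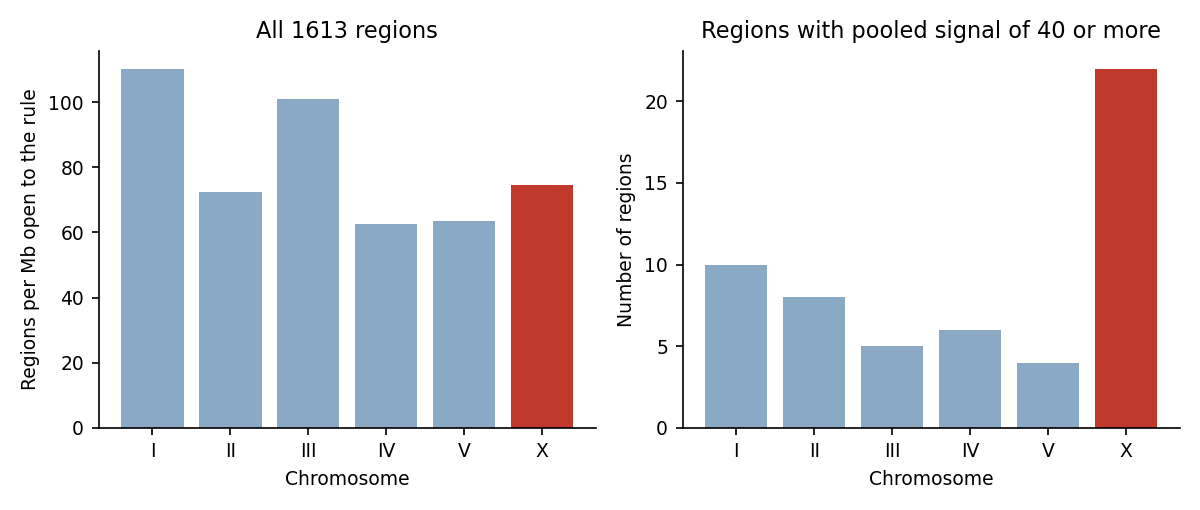
Left, the number of the 1613 regions per Mb of sequence open to the position rule on each chromosome; right, the number of regions with a pooled signal of 40 or more; both axes start at 0 and X is in red. X is among the middle of the chromosomes on the left (74.7 per Mb) and has 22 regions on the right, against 4 to 10 on each autosome. The right panel is not divided by open length, which was 4.98 Mb on X and 2.42 Mb on chromosome I, the autosome with 10.

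Within the autosomes the regions were not gathered in the gene-rich centres. With each autosome cut into 3 equal parts, the middle part held 32.2% of the 1241 autosomal regions (29.6 to 34.8), beside 31.9% of the open length and 29.8% of the weaker regions. The nearest protein-coding 5' end lay at a median of 2552 bp, with quartiles of 1617 and 4152 and a maximum of 33812, and the gap between the flanking protein-coding genes had a median of 7388.5 bp. Weaker regions gave medians of 2686 and 7658 bp. The flanking genes diverged around 33.2% of the regions, ran in tandem around 57.8% and converged around 8.99%. Of the open length, 32.1%, 53.6% and 14.2% lay in such gaps, and of the weaker regions 33.0%, 56.2% and 10.7%. The share between converging genes was thus below that of the open length among the strong regions (7.69 to 10.5) and the weaker ones (9.91 to 11.7). Of the 19 IDR regions, 3 lay between diverging, 11 between tandem and 5 between converging genes.

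A second region of the set lay within 5000 bp of 554 (34.3%), within 2000 bp of 372 (23.1%) and within 10000 bp of 728 (45.1%). These counts include regions that overlap each other, such as those with summits at X 10082878 and X 10083085. Joined at 5000 bp, the regions of the set made 171 pairs, 49 triplets and 15 larger groups, and 1059 stood alone. Of the 4828 weaker regions 65.9% had another weaker one within 5000 bp. Of the 6348 other strong regions 55.1% had another of their own set. Both sets are larger than the intergenic set, and the part of set size in these shares was not tested. With fewer regions the share for the intergenic set was 8.65% with a threshold of 30, 4.85% among regions in both replicate lists, 12.7% among those in the replicate 2 list and 24.7% among those in the replicate 1 list. None of the 19 IDR regions had another IDR region of the set within 5000 bp.

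The summits were richer in G and C than the sequence beside them. Over the 100 bp to either side of the summit the median GC content was 35.8% (quartiles 31.8 and 40.3), against 33.3% in windows 500 to 700 bp away. For the weaker regions both were 33.3%. The median was 34.8% at a signal of 20 to 25, 36.8% at 25 to 30, 38.3% at 30 to 40, 43.5% at 40 to 50 and 41.8% at 50 or more. The 19 IDR regions had a median of 41.8% at the summit and 32.3% in the flanks. The lowest of them on X had 34.8% and the highest 56.7%, and on the autosomes they spanned 35.8 to 47.8%. GC content can itself alter the read yield of a library, and its part in the signal was not tested.

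Repeated sequence made up less of the strong regions than of the weak ones. Lower-case masking in the assembly covered a mean of 33.9% of the summit windows, 39.8% in the weaker regions, and 15.3% in the IDR regions. A copy elsewhere in the genome, of at least 80% identity over 100 bp, was found for 133 of the 1613 (8.25%, 7.0 to 9.69), against 12.6% of the weaker regions (11.7 to 13.5) and 0 of the 19 in the IDR list (Wilson upper bound 16.8%). The strongest region with a copy was V 95023, between daam-1 and the ribosomal protein gene rps-27, with a pooled signal of 38.2 and replicate signals of 16.0 and 22.4. It had 15 copies. Reads from such sequence can be split between copies or placed in the wrong one, so its signal is uncertain. A piRNA gene lay within 200 bp of 64 regions (3.97%), of which 1 was on X, and within 200 bp of 6.69% of the weaker regions.

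Among the regions with copies, 32 fell into 10 groups alike in sequence. The largest held 8 regions on 4 chromosomes, with a median signal of 23.6 and a highest of 27.3, and none of them was in both replicate lists. Their median number of copies in the genome was 732.5. The next held 6 regions with a median of 257.5 copies, and another held 3 with a median of 1231. The 50 bp to either side of the summit of 1 member of each of these latter groups show the kind of sequence involved, with no letters in capitals since none of the marked words occurred.
chrIV:490953-491053: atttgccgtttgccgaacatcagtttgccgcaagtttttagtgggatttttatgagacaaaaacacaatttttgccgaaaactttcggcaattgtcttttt
chrIII:551436-551536: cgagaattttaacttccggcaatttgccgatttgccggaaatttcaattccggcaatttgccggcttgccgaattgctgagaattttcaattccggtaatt

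CGCGCAGGG was rare and lay under some of the strongest X regions. It occurred within 100 bp of the summit, on either strand, in 5 of the 1613 regions (0.310%), against 0.0207% of the weaker regions and 0.0567% of all nuclear pooled regions. This word, GAGACGCAG, CCCTTCGC and GTGGATA were taken from a scan of 7-letter words at these regions after the signals were known, so their shares here are a description. In the ce11 genome CGCGCAGGG occurs 33 times on X (1.86 per Mb) and 44 times on the autosomes (0.533 per Mb). A pooled summit lay within 100 bp of 16 of the 33 on X (48.5%) and of 4 of the 44 on the autosomes (9.09%). An IDR summit lay within 100 bp of 9 of the X copies and of none of the autosomal ones. The 5 regions with the word were X 16682124, X 11094224, X 4209281, X 806674 and III 9642515. The 4 on X had signals of 86.5 to 107 and were all in the IDR list. III 9642515, near gei-13, had 26.3 and was in replicate 1 alone, with 15.5. X 11094224 and X 806674 each carried 2 copies.

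The same word lay under strong X regions that the position rule left out. X 6296578, inside a gene near lev-9, had a pooled signal of 103 (74.95 and 31.1). X 2997067, also inside a gene, near osm-5, had 77.4 (35.4 and 39.7). X 14525864, 683 bp from a 5' end, had 60.2 (27.1 and 37.0). X 8036408 had 51.4 (26.96 and 29.7), with a tRNA or snoRNA gene 277 bp away, and lay 4905 bp upstream of xol-1, the gene that sets the sex-determination and dosage-compensation state of the embryo. X regions with the word and signals of 13.1, 16.9, 20.9 and 38.5 were not in both replicate lists, and 1 with 33.8 was. A table of known dosage compensation sites was not used here, and the part of such sites in the signal was not tested.

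CCCTTCGC occurred in 7 regions, all on X (0.434% of the set, against 0.186% of the weaker regions and 0.143% of all), and 4 of them were in the IDR list. GTGGATA occurred in 34 (2.11%, against 0.891% and 1.32%), 4 of them in the IDR list. That list held 1.18% of the set and 2.96% of its X regions. In the ce11 genome CCCTTCGC occurs 140 times on X and 491 times on the autosomes, and GTGGATA 1373 and 6741 times. A pooled summit with a signal of 20 or more lay within 100 bp of 9.29% and 1.63% of the CCCTTCGC copies. For GTGGATA these shares were 2.69% on X and 1.47% on the autosomes. The 6 strongest of the 11 X regions in the IDR list, with signals from 86.5 up, each had at least 1 of CGCGCAGGG, CCCTTCGC and GTGGATA, as the printed windows show. The other 5, at 78.6 and below, had no exact match to any of these words, nor had any of the 8 autosomal regions in the IDR list. The words were taken from the scan at these same regions after the signals were known, so this split by signal is only described. Near matches were not searched. In X 13700883 the pair GTGGATA and CCCTTCGC was centred 23 bp before and 24 bp after the summit. In X 11094224 GTGGATA lay 15 bp before, CGCGCAGGG 6 bp after and CCCTTCGC 21 bp after it.

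GA-rich sequence was more frequent in the autosomal regions than in those on X. GAGAGA, the word bound by GAGA factor in Drosophila, occurred within 100 bp of the summit of 330 regions (20.5%, 18.6 to 22.5), against 12.5% of the flanking windows, 11.7% of the weaker regions (10.8 to 12.6) and 13.3% of all nuclear pooled regions. Strong promoter regions had it in 20.3% and strong regions in gene bodies in 14.2%. On the autosomes 22.6% of the intergenic set had it (20.3 to 24.97), and on X 13.4% (10.3 to 17.3). Weaker regions gave 12.5% and 8.90%. In the IDR list 6 of 8 autosomal regions had it and 1 of 11 on X. II 11635927, printed above, had 14 overlapping matches.

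GAGACGCAG occurred in 80 regions (4.96%, 4.003 to 6.13), against 1.52% of the flanking windows, 1.20% of the weaker regions and 1.88% of all nuclear pooled regions. Strong promoter regions had it in 4.38%, inside that interval, and strong regions in gene bodies in 1.97%. In the ce11 genome it occurs 4097 times on the autosomes (49.6 per Mb) and 322 times on X (18.2 per Mb). A pooled summit with a signal of 20 or more lay within 100 bp of 7.20% of the autosomal copies and 9.94% of those on X. The word was taken from the scan at these same regions, so its shares here are a description. With a following A it contains the complement of TCTGCG, another word searched, so the 2 counts are not independent. Its 80 regions had a median signal of 27.95, and 26.25% of them were in both replicate lists, beside 23.2 and 12.8% for the whole set. The 1258 regions with neither GA word had 22.8 and 10.5%. Regions with GAGACGCAG also had a median GC content of 44.3%, against 35.8% for the set, so word and composition moved together.

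**Figure D4:**
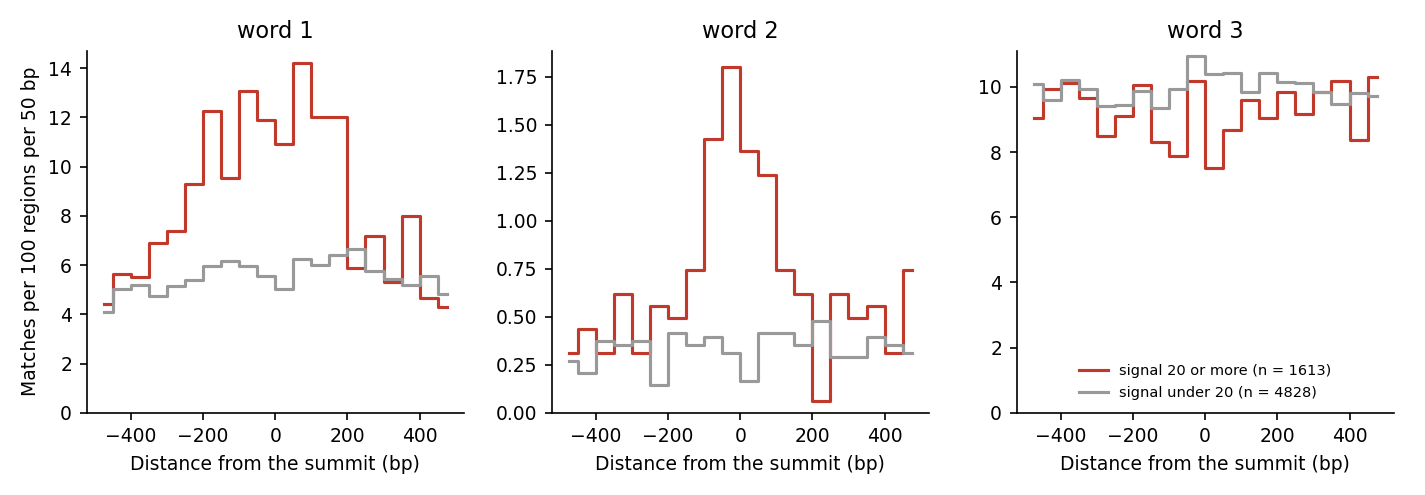
Matches on either strand per 100 regions in each 50 bp step (vertical, from 0) by distance from the summit (horizontal, bp), for the 1613 regions (red) and the 4828 weaker regions of the same position rule (grey); word 1 is GAGAGA, word 2 GAGACGCAG and word 3 TTTCAG, with overlapping matches counted. GAGACGCAG rises to 1.80 per 100 regions in the step before the summit, GAGAGA is raised over about 200 bp to either side, and TTTCAG has no peak. GAGACGCAG was taken from a scan of words at the red regions themselves.

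The word profile had its centre at the summit for GAGACGCAG. This word was taken from the scan at these same regions, so a rise at their summits was favoured by the choice and is only described. Its matches rose from 0.310 per 100 regions in the step 500 bp before the summit to 1.80 in the last 50 bp before it, and the weaker regions had 0.311 in that step. GAGAGA reached 14.2 per 100 regions in the step from 50 to 100 bp after the summit, against 4.402 in the first step, 500 bp before it. The weaker regions had 6.26 and 4.10.

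**Figure D5:**
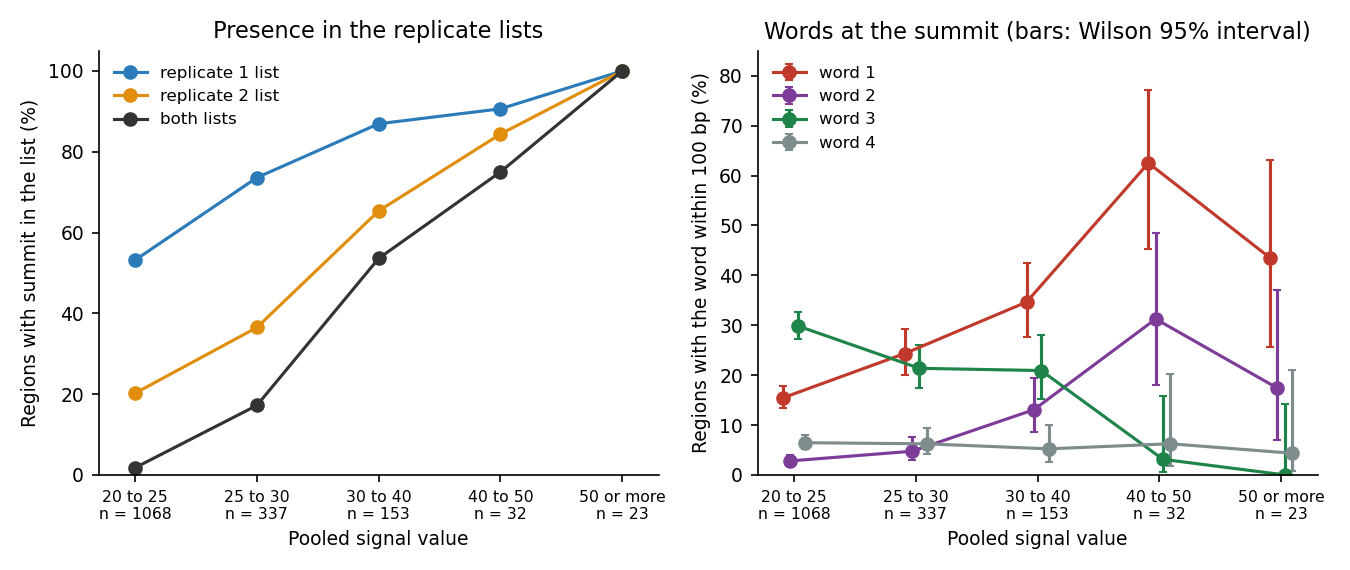
Left, the share of the regions with their summit in the replicate 1 list, the replicate 2 list or both, and right, the share with each of 4 words within 100 bp (bars are Wilson 95% intervals), by pooled signal value; word 1 is GAGAGA, word 2 GAGACGCAG, word 3 TTTCAG and word 4 AGGTCA. Presence in both lists rises from 1.78% to 100%, GAGAGA from 15.4% to 62.5% at 40 to 50, and TTTCAG falls from 29.9% to 0.

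The shares with GAGAGA and TTTCAG ran in opposite directions with the signal. GAGAGA went from 15.4% at a signal of 20 to 25 through 24.3% and 34.6% to 62.5% at 40 to 50, and was 43.5% at 50 or more. TTTCAG, the sequence of worm 3' splice sites, went from 29.9% through 21.4% and 20.9% to 3.13%, and was in none of the 23 strongest (Wilson upper bound 14.3%). Over the whole set it occurred in 26.3% (24.2 to 28.5), against 31.2% of the flanking windows and 32.3% of the weaker regions. Strong promoter regions had it in 31.2%, against 38.1% of their flanking windows. For strong regions in gene bodies these shares were 35.5% and 35.6%, and for all strong nuclear regions outside the set 31.5% and 37.0%. None of the 19 IDR regions had it at the summit, while 12 of their 38 flanking windows did. The summits gain GC with signal, and the part of base composition in the share with TTTCAG was not tested.

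The receptor half-site was about as frequent at the summits as beside them. AGGTCA occurred at 6.26% of the summits (5.18 to 7.55), against 6.23% of the flanking windows, 5.88% of the weaker regions and 5.12% of all nuclear pooled regions. Its share stayed between 4.35% and 6.46% over the 5 signal steps. The longer AAGGTCA, which contains it, occurred in 2.48% (1.83 to 3.36). It was in 2.14% of the flanking windows, inside that interval, and in 1.57% of the weaker regions, below it. TGACCTTT, which holds both on the other strand, occurred in 1.24%, 0.899% and 0.891%. In the IDR list 1 of the 19 had all 3, the region beside ins-13 printed above, where the match lay towards the edge of the window. No match says only that these letters are not in this window.

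Of the other words searched, TCTGCG occurred in 10.1% of the regions, against 4.65% of the flanking windows and 5.07% of the weaker regions. Strong promoter regions had it in 10.4% and all other strong nuclear regions in 9.26%. GATAA, the core bound by GATA factors, occurred in 36.3% and 36.7% of the weaker regions. The telomere repeat TTAGGC was in 7.01% and 6.30%, the E-box CACGTG in 3.97% and 3.04%, and the cAMP-response word TGACGTCA in 1.12% and 1.04%. ACTACA was in 11.8% and 11.0%, and CTGTTTCA in 1.92% and 2.63%. In the IDR list 12 of the 19 had GATAA (63.2%, 41.04 to 80.9), against 42.1% of their flanking windows. Its share in the set was 31.25% at a signal of 40 to 50 and 56.5% at 50 or more. The weaker regions' share lay outside the Wilson interval of the strong ones for TCTGCG (8.73 to 11.7) and by a little for CACGTG (3.12 to 5.04), and inside it for the other 5 words of this paragraph.

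The neighbours of the regions were counted for 12 gene families, as genes flanking the summit on either side. Nuclear hormone receptor genes flanked 71 regions (4.402%, 3.50 to 5.52), against 3.81% of the weaker regions and 3.86% of the open length, so the share was within counting error of both. The strongest beside a receptor gene were III 4237968 (nhr-20), X 12670605 (nhr-17), and I 9837266 (nhr-62). All 3 were in both replicate lists, as were all 23 regions of the set with a signal of 50 or more. Lipid metabolism genes flanked 16 regions (0.992%, 0.611 to 1.61), against 0.725% and 0.511%, of which only the share of the open length lay below the interval. The strongest was beside the fatty acid elongase gene elo-3, at 41.4. Ribosomal protein genes flanked 14 (0.868%, 0.518 to 1.45), against 0.456% and 0.366%, both below the interval, with rps-27 and rpl-35 beside the strongest. With 12 families counted and neighbouring regions not independent, these differences were not tested.

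Developmental genes were not more frequent beside strong regions than beside weak ones. Homeobox genes flanked 31 regions (1.92%) and 2.57% of the weaker ones, with ceh-43, a Distal-less relative, at 36.0 and 31.7 and ceh-22, an NK-2 relative, at 32.6. Other regulators of embryonic fate flanked 43 (2.67% and 2.65%), including the T-box gene tbx-41 at 40.1, egl-27 at 35.7 and lin-41 at 34.1. Neuropeptide genes flanked 32 (1.98% and 2.59%), collagen and cuticle genes 25 (1.55% and 1.91%), and detoxification genes 9 (0.558% and 0.684%). Chemoreceptor genes flanked 86 (5.33% and 5.30%), below the 6.81% of the open length, and F-box and MATH genes 15 (0.930% and 1.33%), below 2.41%. C-type lectin genes flanked 13 (0.806% and 0.953%), with clec-91 at 47.8. Argonaute and small-RNA genes flanked 7 (0.434% and 0.456%). Of these 7, 4 were in both replicate lists, beside 12.8% of the set and 17.2% of all nuclear pooled regions of 20 or more. Among the 4 were 2 regions in the same gap beside sid-3, a kinase gene needed for the import of silencing RNA, at 49.8 and 42.02. Of all regions of the set with a signal of 40 to 50, 75% were in both lists. Flanking position is a distance, and no expression was measured.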

How the data were processed

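According to text records of the libraries, the authors made relaxed region lists from each replicate and from the pooled replicates, and a final IDR list. Every region has a deposited signal value, a score of strength against a control, and the replicate lists also hold a deposited −log10 q-value. Not given in the sources used here are the aligner, the caller, their versions and the cutoffs. The ce11 lists were used, and the ce10 list served 1 alternative. A summit is the offset the lists give.

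Gene positions came from Ensembl release 115 and sequence from the RefSeq assembly WBcel235. The weaker regions compared met the same position rule with a signal under 20. A region was in a list when its summit lay in one of that list's regions. Word searches covered both strands, 100 bp to either side of the summit. Copies were found with blastn 2.17.0 (e-value 1e-05). Shares have Wilson 95% intervals. Python 3.11.15, pandas 2.3.3 and scipy 1.17.1 were used. The functions for position, overlap and words were checked against slow versions on simulated data.

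The members, gene lists and words were chosen with earlier results of these data known. Values are given for the 20 strongest members, 3 to either side of the threshold, the 5 strongest in no replicate list and beside up to 3 genes of each list. Regions with CGCGCAGGG and the strongest with a copy were named after their values were seen. Only some of the sequences of the strongest members and of the groups alike in sequence are printed. No test was made, since the rule used the signal. The groups compared are regions of 2 libraries, not conditions, and the alternatives tried were other thresholds, distances, overlaps, windows and copy limits, and each replicate alone.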

Additional observations from a re-analysis of the deposited data

How the results depend on the processing

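No paired analysis was possible because both libraries belong to 1 group. The number of regions was 4354 at a threshold of 15, 208 at 30, 23 at 50 and 1037 when summits lay more than 2000 bp from a 5' end. Regions in both replicate lists came to 129, 23 and 133 at the last 3 settings, and to 13 with q-values of 0.05 or less. Asking for 1 replicate alone gave 489 to 1001. The Spearman correlation of the replicates was 0.316 at a threshold of 30. Median GC was 40.05% at a threshold of 30, 41.8% at 50 and in the IDR list, 38.8% in both replicates and 36.8% with either replicate alone. The median distance was 3645 bp past 2000 bp. The share with copies was 5.77% at 30, 0 at 50 and in the IDR list, 6.80% in both replicates, 2.11% at 90% identity and 21.0% over 50 bp. The X share was 28.4% at 30, 52.2% at 50, 29.1% in both replicates and 57.9% in the IDR list. The middle of 3 equal parts of the autosomes held 36.4% at 50 and 25% in the IDR list. The share with another such region near was 8.65% at 30, 0 at 50 and in the IDR list, 4.85% in both replicates, 12.7 to 24.7% with 1 replicate, 23.1% within 2000 bp and 45.1% within 10000 bp. Shares for words, orientation and gene lists left the interval of the reported value in 125 of 233 such recalculations, 30 of 31 at a threshold of 50 and 2 of 31 beyond 2000 bp. At 50 only 23 regions are left, so those shares have wide intervals. Depth is unknown, and a region absent from a replicate list is not shown to be unbound.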
